A study of Schizosaccharomyces pombe with 28 samples.

Results

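The 10 genes described here encode enzymes of glycolysis in the fission yeast Schizosaccharomyces pombe. They were chosen by name: hxk2, pfk1, fba1, tpi1, tdh1, gpd3, pgk1, gpm1, eno101 and pyk1 are the symbols sought in the probe annotation, and all 10 of 10 were found among 4929 genes, each with 2 probe rows. The series holds 28 two-colour arrays, all of 1 group. Per the labels the hybridisations are self-self, with an independent sample of the wild-type strain LJY1014 (h- leu1-32) in each channel. Cells grew in YES, a rich medium, to early-log phase, and cDNA was primed with oligo-dT on total RNA. The mutated leu1 gene is shared by all samples. The values are log2 ratios between the 2 channels, with each array centred on its median and the 2 probe rows of a gene averaged. A ratio of 2 wild-type samples holds no level, so the labelled strain and growth phase could not be checked against marker genes, and the genes cannot be ranked by abundance. Which channel is the numerator is not given in the sources used here, so the sign of a value names no sample.

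Glycolysis splits glucose into pyruvate in the cytosol and yields ATP and NADH without oxygen. In fission yeast growing on glucose it is the main source of energy and feeds ethanol fermentation. In its upper part hexokinase (hxk2) and phosphofructokinase (pfk1) spend ATP, aldolase (fba1) cuts the sugar and triosephosphate isomerase (tpi1) interconverts the products. In the lower part glyceraldehyde-3-phosphate dehydrogenase, or GAPDH (tdh1 and gpd3), makes NADH, phosphoglycerate kinase (pgk1) and pyruvate kinase (pyk1) make ATP, and phosphoglycerate mutase (gpm1) and enolase (eno101) stand between them. Tdh1 is also known in this yeast for its part in peroxide signalling to the stress-activated kinase cascade.

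The arrays are not 28 independent draws. Average-linkage clustering of their correlations across genes was cut into 3 sets of like arrays, a number set by choice. The first set holds arrays 1 to 8, 19 and 20, the second set arrays 9 to 18, and the third set arrays 21 to 28. Leaving the 10 genes out of the clustering placed all 28 arrays in the same sets. The labels do not name these sets, nor say which culture, day or slide each array used. Arrays correlated at a median of 0.657 within sets and 0.039 across them, so p-values that treat arrays as independent are too small, also within a set. Deposited array medians ran from -0.29 in array 27 to 0.01.

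The members moved as a pathway in some arrays and came apart in others. The average of the 10 genes ran from -0.27 in array 14 to 0.56 in array 27, with a median of 0.061 over arrays. In arrays 21, 22, 27 and 28 all 10 members stood above 0, and in 0 arrays did all 10 stand below it. Array 14 was the nearest to that, with 9 members below 0 and pgk1 at 0.076. These counts rest on the average of the 2 probe rows of pgk1, which disagreed. Its second row was -0.27 in array 21 and -0.026 in array 22, and its first row -0.13 in array 14. In the first set the pathway average lay between -0.0010 and 0.24, in the second between -0.27 and 0.027, and in the third between -0.00048 and 0.56. The SD over the 10 members within an array had a median of 0.27 in the first set, 0.15 in the second and 0.15 in the third set, so the enzymes lay farthest from each other in the first set. There gpd3 was the lowest member in all 10 arrays and fba1 the highest in 8. Array 27 had the lowest deposited median, and as deposited, without centring, its members averaged 0.27. That was below arrays 21 (0.45), 28 (0.41) and 22 (0.38), so array 27 had the highest pathway average only after centring. The same shift lies in all single-gene values given for array 27.

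**Figure D1:**
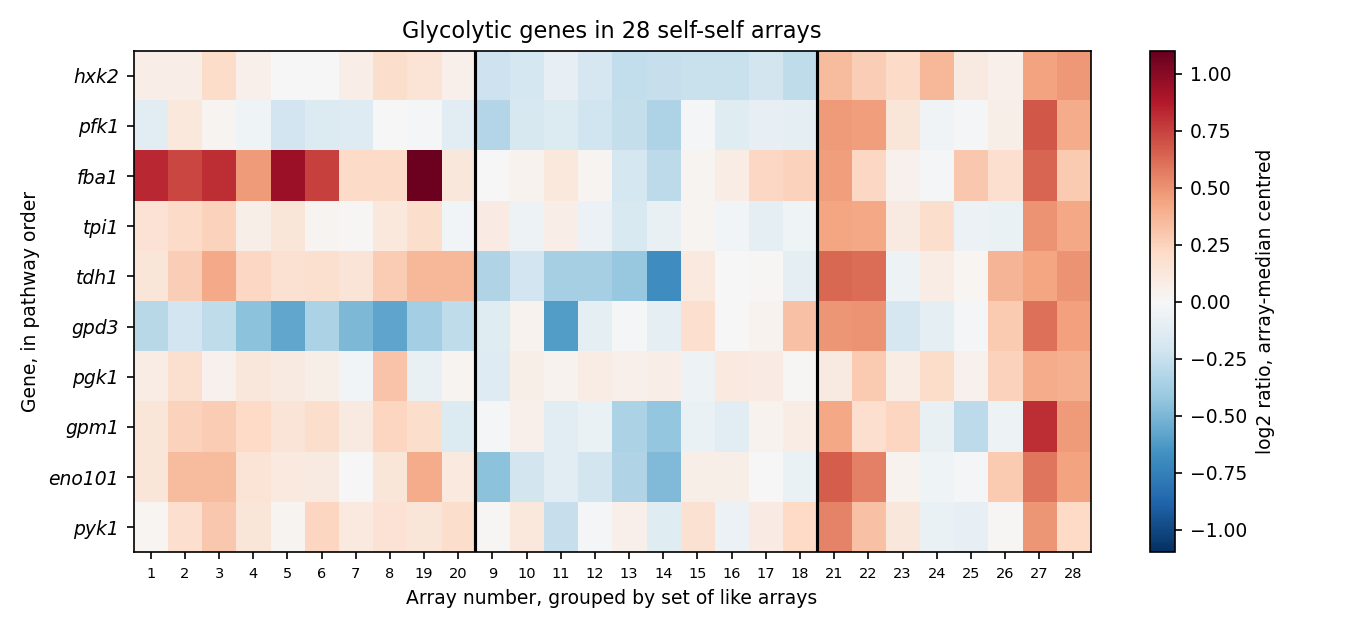
Each row is a gene in pathway order and each column an array, grouped by set with black lines between sets; the colour is the centred log2 ratio. The fba1 row is high and the gpd3 row low in arrays 1 to 8, 19 and 20. All 10 genes, each as the average of its probe rows, are above 0 in arrays 21, 22, 27 and 28.

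The aldolase gene fba1 had the widest spread of the 10. Its log2 ratio ran from -0.29 in array 14 to 1.08 in array 19, with a median of 0.22, an SD of 0.35 (n = 28) and values above 0 in 25 arrays. The highest value corresponds to a 2.11-fold ratio between the channels of 1 array. In the first set fba1 averaged 0.62 ± 0.34 (SD, n = 10), in the second 0.031 ± 0.17 (SD, n = 10) and in the third 0.27 ± 0.21 (SD, n = 8). The first set itself split: fba1 lay between 0.47 and 1.08 in arrays 1 to 6 and 19, against 0.12 to 0.21 in arrays 7, 8 and 20. These groups of arrays come from clustering within the set without the members, with the number of groups set by choice. fba1 was the only 1 of 10 members whose values were all higher in arrays 1 to 6 and 19 than in arrays 7, 8 and 20, as were 11.4% of all genes.

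The hexokinase gene hxk2, in the average of its probe rows, separated the second set from all other arrays. It lay between -0.28 and -0.094 in arrays 9 to 18, against -0.0015 to 0.20 in the first set and 0.052 to 0.48 in the third. Its values in the second set thus lay below those of every other array, which held for 1 of 10 members and for 1.03% of all genes. With the second probe row alone hxk2 did not separate them. That row stood at 0.058 in array 11, above array 5 of the first set at 0.0044. Differences between the sets made up 82.9% of the variance of hxk2, against 18.7% to 60.9% for the other 9 members and a median of 43.9% over all genes. The paralogue hxk1, which encodes the other hexokinase, averaged -0.071, -0.18 and 0.066 in the 3 sets.

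The phosphofructokinase gene pfk1 had a median of -0.071 and ran from -0.34 in array 14 to 0.68 in array 27. It was below 0 in 20 of 28 arrays, all 10 of the second set among them, and between 0.41 and 0.68 in arrays 21, 22, 27 and 28. The triosephosphate isomerase gene tpi1 had a smaller range, from -0.17 in array 13 to 0.49 in array 27, and an SD of 0.18. In arrays 9 to 18 it stayed within -0.17 and 0.094, and in arrays 21, 22, 27 and 28 within 0.43 and 0.49.

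Of the lower enzymes, gpm1, eno101 and pyk1 each had their highest value in an array of the third set. Every other member except fba1 did so too. gpm1 ran from -0.42 in array 14 to 0.81 in array 27, with a median of 0.089 and an SD of 0.26. eno101 ran from -0.49 in array 14 to 0.67 in array 21, with a median of 0.084 and an SD of 0.29. In the first set eno101 was above 0 in all 10 arrays (0.0080 to 0.41), in the second in 3 of 10, and in the third in 6 of 8. pyk1 varied less, from -0.25 in array 11 to 0.54 in array 21, with a median of 0.12 and an SD of 0.17. It was above 0 in all 10 arrays of the first set, between 0.019 and 0.30.

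Within the third set the pathway split by array. Clustering that set alone without the members, with the number of groups set by choice, put arrays 21, 22, 27 and 28 apart from arrays 23 to 26. For 6 of 10 members (pfk1, tpi1, tdh1, gpd3, eno101 and pyk1) every value in arrays 21, 22, 27 and 28 was higher than every value in arrays 23 to 26, as it was for 9.92% of all genes. The reverse held for 0 of 10 members and for 9.6% of all genes. With the first probe row alone tdh1 and pyk1 did overlap. That row of tdh1 stood at 0.37 in array 27 and 0.43 in array 26, and that of pyk1 at 0.11 in array 28 and 0.30 in array 23. pfk1 averaged 0.51 in the first of these groups and 0.035 in the other, tpi1 0.44 and 0.038, gpd3 0.51 and -0.0017, and pyk1 0.39 and -0.0079. The other 4 members overlapped between these groups. Of them gpm1 averaged 0.47 and -0.046, with 0.18 in array 22 and 0.24 in array 23.

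**Figure D2:**
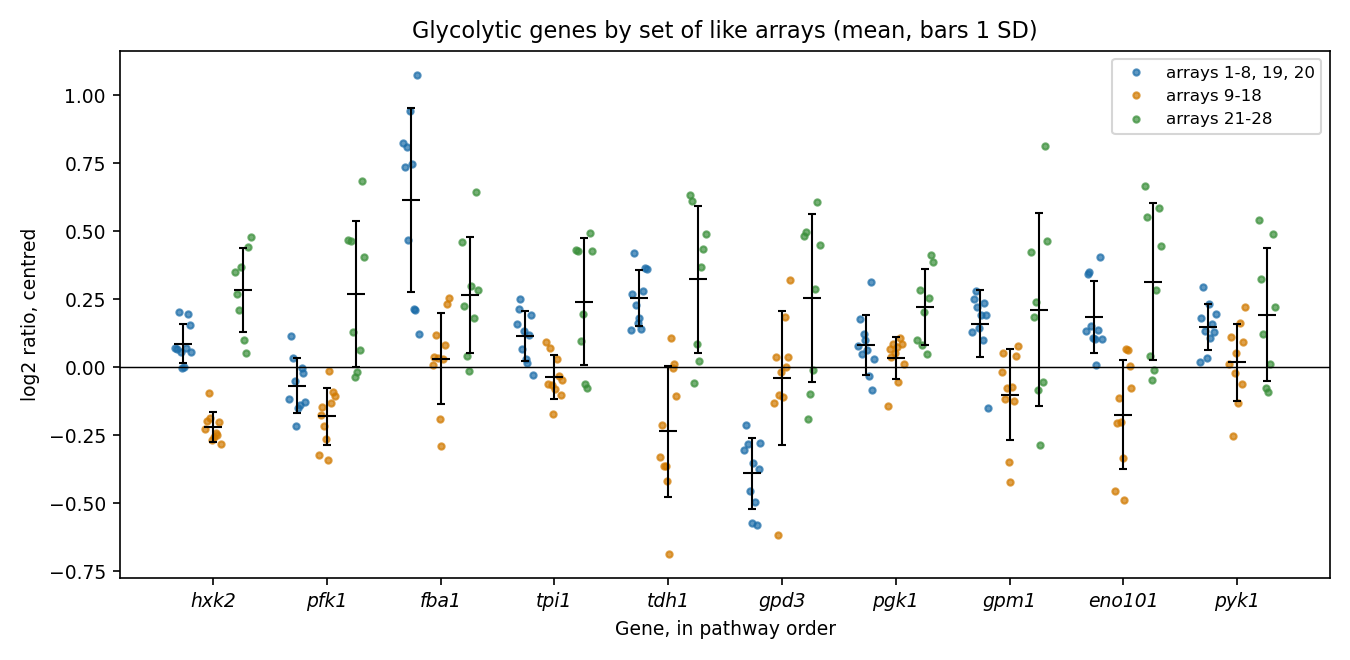
Points are single arrays, coloured by set, for each gene in pathway order; black marks are set means with bars of 1 SD, and the vertical axis is the centred log2 ratio. hxk2 of arrays 9 to 18 lies below its values in all other arrays, and gpd3 is the only gene whose first-set arrays all lie below 0.

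The GAPDH genes tdh1 and gpd3 encode the same enzymatic activity, and being measured on the same array they can be set against each other without any array-wide shift. tdh1 ran from -0.69 in array 14 to 0.63 in array 21, with a median of 0.14 and an SD of 0.33. gpd3 ran from -0.62 in array 11 to 0.61 in array 27, with a median of -0.10 and an SD of 0.35. In the first set the paralogues stood on opposite sides of 0 in every array: tdh1 lay between 0.14 and 0.42, against gpd3 between -0.58 and -0.21. Arrays 9 to 18 had tdh1 between -0.69 and 0.11, against gpd3 between -0.62 and 0.32. In the third set their ranges nearly coincided, at -0.056 to 0.63 for tdh1 and -0.19 to 0.61 for gpd3.

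The difference tdh1 minus gpd3 was 0.64 ± 0.13 in the first set (SD, n = 10), or a 1.56-fold higher ratio for tdh1, and ran from 0.44 in array 1 to 0.86 in array 8. In the second set it was -0.20 ± 0.24 (SD, n = 10), from -0.58 in array 14 to 0.25 in array 11, and below 0 in 9 of 10 arrays. In the third set it was 0.070 ± 0.11 (SD, n = 8), from -0.17 in array 27 to 0.18 in array 24, and above 0 in 7 of 8. All 10 differences of the first set were therefore larger than any of the other 18. Exact two-sided sign-flip permutation tests gave p = 0.00195 in the first set, which is the smallest that 10 arrays allow, 0.0293 in the second and 0.125 in the third. Adjusted over the 3 sets these were 0.00585, 0.0439 and 0.125. Over all 28 arrays the difference averaged 0.18 (SD 0.41) and was above 0 in 18, with p = 0.0265 in a two-sided permutation test, a value that mixes sets of opposite sign. Over the 18 arrays outside the first set it averaged -0.078 (SD 0.23, permutation p = 0.177).

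Each probe row gave the same order of the paralogues in the first set. With the first probe of each gene the difference there was 0.48 ± 0.13 and with the second 0.81 ± 0.19 (SD, n = 10 each), above 0 in 10 of 10 arrays with each. For arrays 9 to 18 the first probes gave -0.17 ± 0.38 and the second -0.23 ± 0.19, below 0 in 7 and 9 of 10 arrays. Two-sided sign-flip permutation tests there gave unadjusted p = 0.209 with the first probes and 0.00586 with the second. The 2 probe rows of tdh1 averaged 0.11 and 0.39 in the first set, so the size of the difference depends on the row. No probe or gene sequence was used here, and how far a probe of one paralogue also binds cDNA of the other was not tested.

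**Figure D3:**
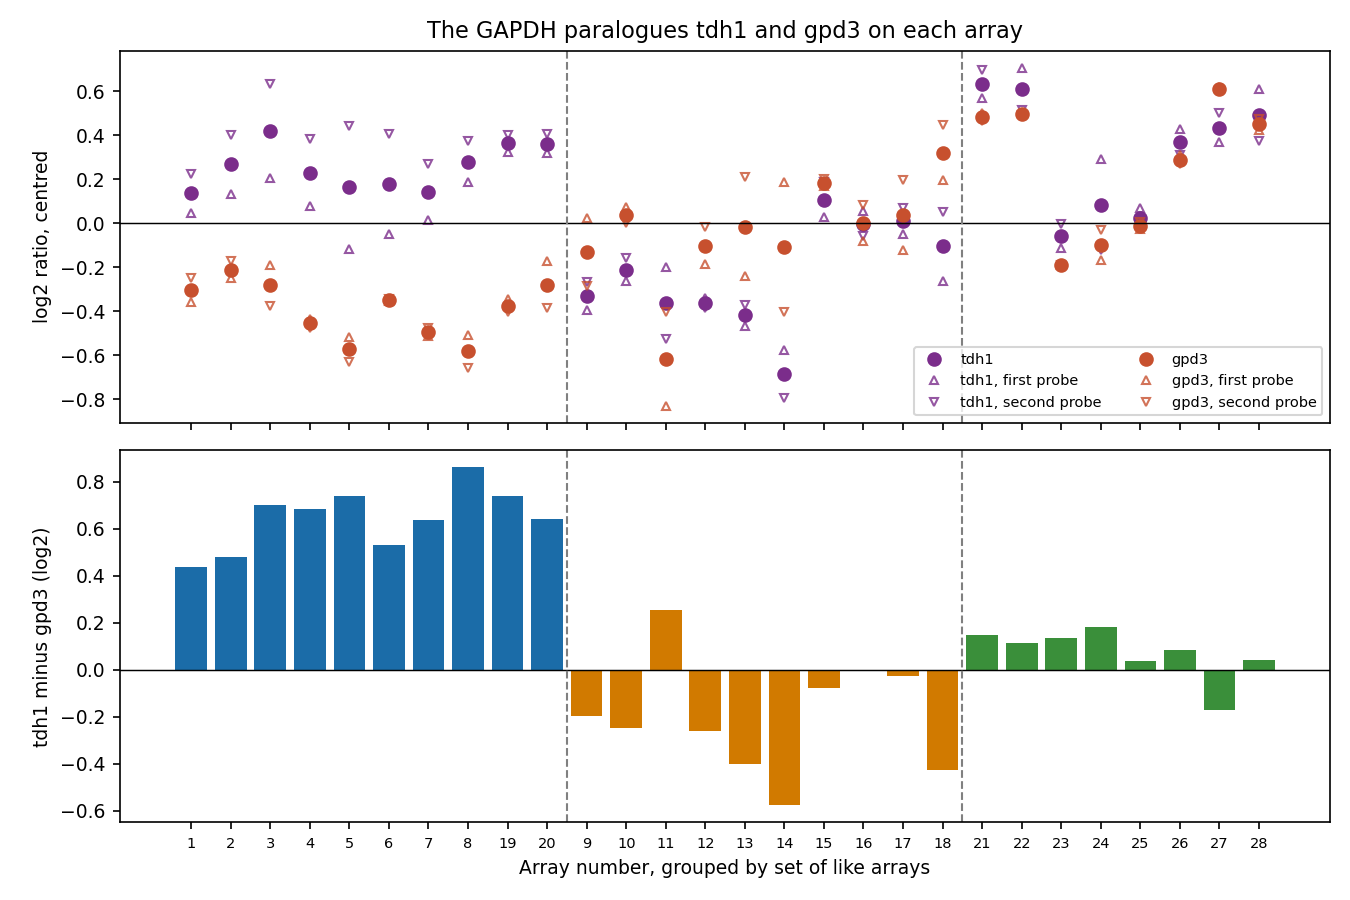
The upper panel shows the centred log2 ratios of tdh1 and gpd3 on each array (filled circles, average; open triangles, the 2 probe rows), and the lower panel tdh1 minus gpd3, with dashed lines between sets. In arrays 1 to 8, 19 and 20 the difference is between 0.44 and 0.86, and in arrays 9 to 18 it is below 0 except in array 11.

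Although they lay apart in the first set, the paralogues took like values in arrays 21 to 28. In arrays 21, 22, 27 and 28 tdh1 averaged 0.54 and gpd3 0.51, against 0.11 and -0.0017 in arrays 23 to 26. Over these 8 arrays tdh1 and gpd3 correlated at r = 0.935 (exact permutation p = 0.00739, adjusted over the 3 sets 0.0222) and rho = 0.810 (exact permutation p = 0.0218, adjusted 0.0385), and at r = 0.866 without the 2 arrays farthest from the median of tdh1. With the mean of each group of 4 arrays subtracted r was 0.726, and an exact two-sided permutation within the groups gave p = 0.182 (n = 8), so the relation was not shown apart from the split. In the second set r was 0.504 (permutation p = 0.141, adjusted 0.211), and 0.520 without the 2 farthest arrays. There rho was 0.709 (permutation p = 0.0256, adjusted 0.0385, n = 10). That set was uneven too: tdh1 lay between -0.10 and 0.11 in arrays 15 to 18, and between -0.69 and -0.21 in its other arrays. For gpd3 these ranges were 0.0020 to 0.32 and -0.62 to 0.037. The permutation treated all arrays of the set alike, and the relation apart from this split was not tested. In the first set r was 0.388 (permutation p = 0.262, adjusted 0.262) and rho 0.297 (permutation p = 0.406, adjusted 0.406, n = 10), with r = 0.283 without the 2 farthest arrays.

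The phosphoglycerate kinase gene pgk1 was the exception in measurement. Its averaged ratio had the lowest SD of the 10, 0.13, and ran from -0.14 in array 9 to 0.41 in array 27. Its 2 probe rows differed in their averages by set. The first averaged 0.19, -0.088 and 0.42 in the 3 sets, an order shared by 7 of the other 9 members, and the second -0.027, 0.15 and 0.019. In the second set the second row was above 0 in 10 of 10 arrays and the first in 2. The SDs of the rows alone were 0.26 and 0.14. The rows of eno101 lay closer together in most arrays. They stood apart in a few, such as array 19 at 0.68 and 0.13 and array 2 at 0.52 and 0.17.

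**Figure D4:**
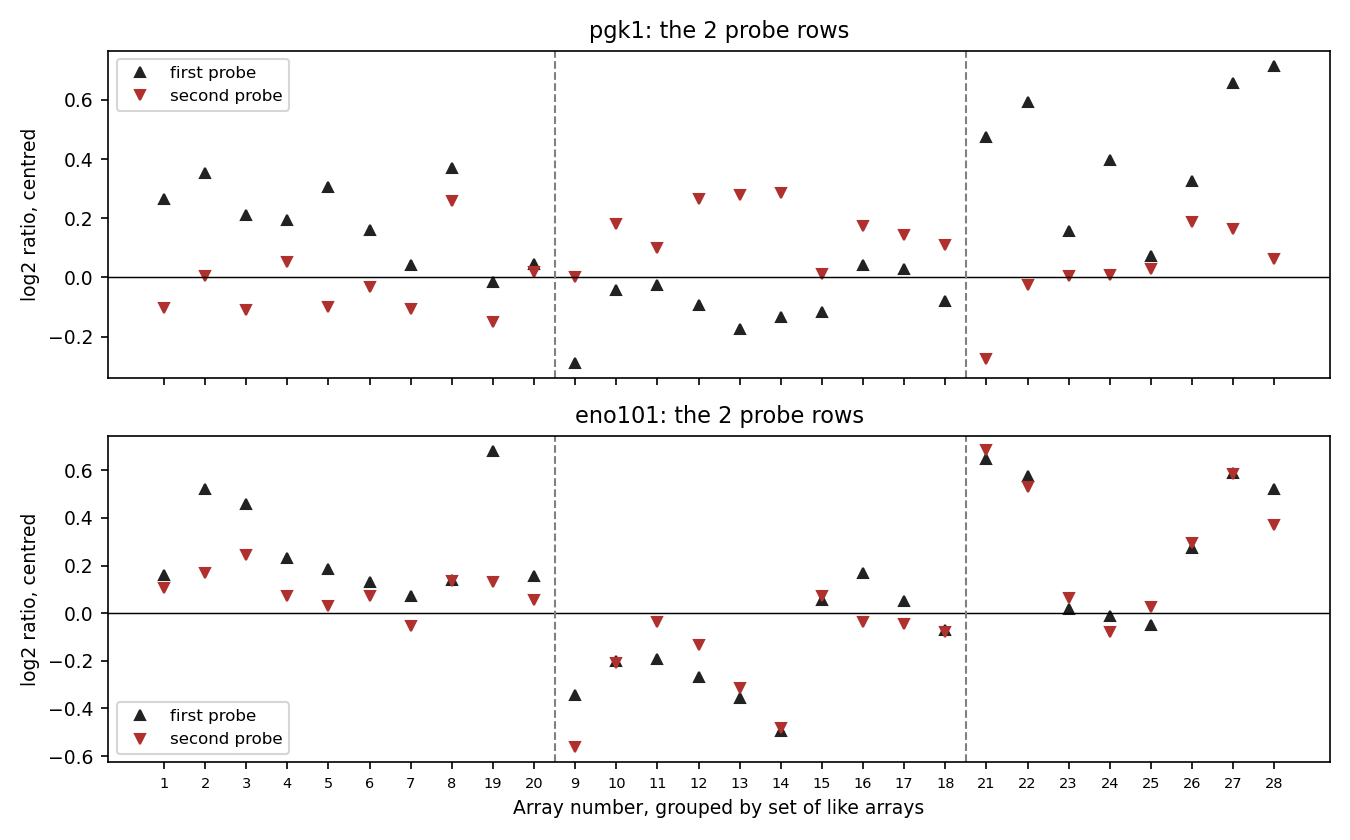
Centred log2 ratios of the 2 probe rows of pgk1 (upper panel) and eno101 (lower panel) on each array, with dashed lines between sets. In arrays 9 to 18 the second row of pgk1 is above 0 and the first mostly below, whereas the rows of eno101 lie close together except in a few arrays such as 19.

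A test across all genes set the variance of a gene between arrays against the disagreement of its 2 rows (one-sided F test, adjusted p under 0.05 over 4929 genes). Of the 10 members 9 passed, against 53.2% of all genes, with adjusted p between 6.72e-09 for eno101 and 0.00314 for pyk1. pgk1 did not pass (adjusted p = 0.902). With the 3 sets removed as fixed blocks 8 of 10 passed, against 23.4% of all genes, and hxk2 was lost (adjusted p = 0.180). The variation of those 8 genes was therefore reproducible between rows also within sets. gpm1 and eno101 had the lowest adjusted p there, 4.16e-06 and 4.18e-06. Whether the 2 rows are duplicate spots of 1 product or different products is not given in the sources used here.

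The median SD of the members was 0.252, against 0.165 over all genes. fba1, gpd3, tdh1 and eno101 stood at percentiles 96.0, 95.8, 94.6 and 90.7 of all genes by SD, gpm1, pfk1 and hxk2 at 85.2, 82.7 and 77.6, and tpi1, pyk1 and pgk1 at 57.5, 54.5 and 27.9. With the sets removed the median SD was 0.188 for the members and 0.124 for all genes.

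**Figure D5:**
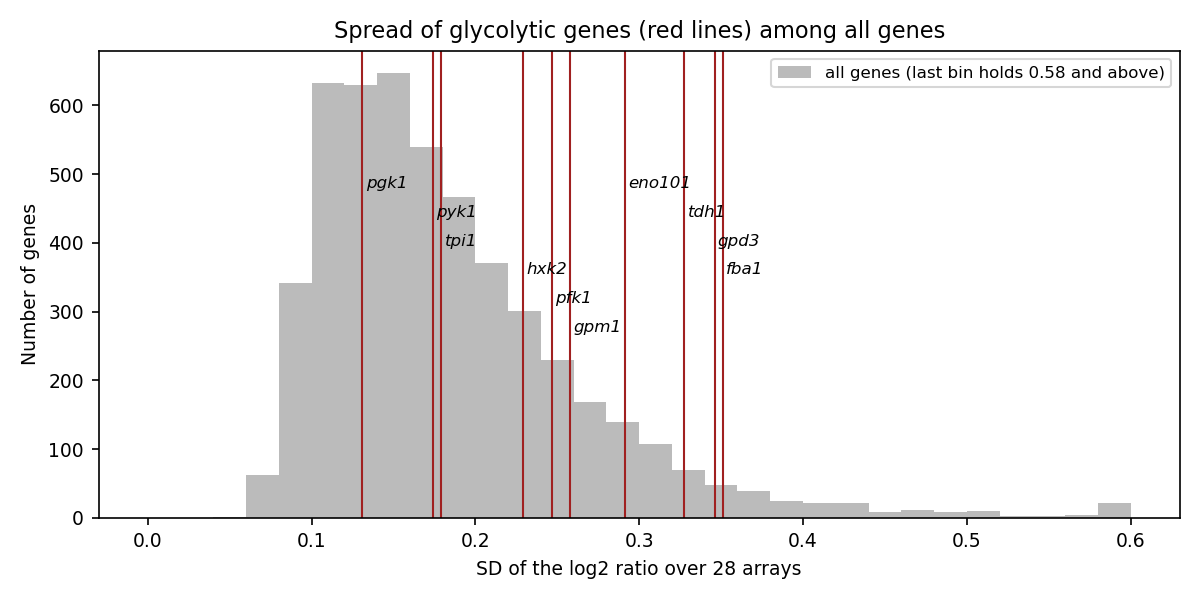
Grey bars count all 4929 genes by the SD of their log2 ratio over 28 arrays, and red lines mark the 10 glycolytic genes. fba1, gpd3 and tdh1 lie between 0.33 and 0.35, and pgk1 at 0.13 lies below the median of 0.165.

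The mean ratio of each member over all arrays was smaller in absolute size than its SD, though for fba1 not by much (0.31 against 0.35). In limma, which tests each gene's mean against 0 over all genes, 4 of 10 members had a mean above 0 past an adjusted p of 0.05, against 28.6% of all genes, and 0 of 10 a mean below, against 23.3% (0 of 10 also at an unadjusted p under 0.05). These were fba1 (0.31, adjusted p = 0.000168), pgk1 (0.10, 0.00105), pyk1 (0.12, 0.00392) and tpi1 (0.098, 0.0151). The other means were 0.034 for hxk2, -0.011 for pfk1, 0.10 for tdh1, -0.081 for gpd3, 0.082 for gpm1 and 0.094 for eno101, and did not pass. With the sets as a random block 0 of 10 members passed in either direction, against 0.69% of all genes above 0 and 0.812% below (1 above and 0 below at an unadjusted p under 0.05). The lowest adjusted p among the members was then 0.302, for fba1.

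Set by set the direction of the means differed. In the first set alone 7 of 10 members, all but pfk1, gpd3 and pgk1, passed above 0 (35.2% of all genes), and gpd3 passed below it (30% of all genes). In the second set alone 4 of 10 passed below 0, namely hxk2, pfk1, tdh1 and eno101 (33% of all genes). In the third set alone 7 of 10 passed above 0: hxk2, pfk1, fba1, tpi1, tdh1, pgk1 and eno101 (12.3% of all genes). Since arrays within a set resemble each other, these counts may be too high. The calls of tdh1 and eno101 in the second set did not stand for like values over its arrays. tdh1 lay between -0.10 and 0.11 in arrays 15 to 18, and between -0.69 and -0.21 in the other arrays of that set. For eno101 these ranges were -0.075 to 0.066 and -0.49 to -0.11. This split was read from the values, not from clustering. hxk2 and pfk1 were below 0 in all 10 arrays of the second set. The calls of the third set did not stand for like values over its arrays either. pfk1 averaged 0.51 in arrays 21, 22, 27 and 28 and 0.035 in arrays 23 to 26. In these groups tpi1 averaged 0.44 and 0.038, eno101 0.56 and 0.067, tdh1 0.54 and 0.11, and fba1 0.40 and 0.13. hxk2 averaged 0.39 and 0.18 and pgk1 0.30 and 0.15, both above 0 in all 8 arrays. The 2 probe rows of pgk1 averaged 0.42 and 0.019 in that set.

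Members tended to move together also with the set means subtracted. After set means were subtracted, the correlation between 2 members over the 28 arrays had a median of 0.51 over the 45 pairs, against 0.0064 over all pairs of genes, and was above 0 in 44 pairs. Points share arrays, and no test was made. Splits inside a set, such as arrays 21, 22, 27 and 28 against arrays 23 to 26, stayed in these values. Between those groups pfk1 averaged 0.51 and 0.035, and eno101 0.56 and 0.067. How far the 45 pairs correlate apart from such splits was not tested. The closest pair was tdh1 and eno101 (r = 0.88), followed by pfk1 and eno101 (0.88) and pfk1 with gpm1 (0.81). The pair fba1 and pgk1 was lowest (-0.032). gpd3 was closest to pyk1 (0.78) and then to tdh1 (0.69).

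Outside the pathway list, by the same measure over 28 arrays, the genes most like the average of the 10 members were rps403 (r = 0.91) and rps1601 (0.89), which encode ribosomal proteins of the small subunit. With them stood the cyclophilin gene ppi1 (0.90), pabp, which encodes poly(A)-binding protein (0.90), and 1 feature with no gene named here (0.90). Closest to tdh1 were the alcohol dehydrogenase gene adh1 (0.86), the sterol synthesis gene erg25 (0.82) and 1 feature with no gene named here (0.80). gpd3 had less similar neighbours, sum3, which encodes a DEAD-box RNA helicase (0.74), pvg3 (0.73) and adh1 (0.73).

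Of 40 genes in 7 lists of neighbouring pathways, 39 were measured, and eno102 was not analysed here. In limma 5 of the 39 passed above 0, where 28.6% of all genes did, and 13 below, where 23.3% did, and 0 passed once the sets were a random block (5 at an unadjusted p under 0.05). Of the other glycolytic genes, pgi1, which encodes phosphoglucose isomerase, ran from -0.66 to 0.51 and averaged 0.054, -0.31 and 0.23 in the 3 sets. hxk1 averaged -0.069 over all arrays (adjusted p = 0.0328 in limma). Both passed the F test between probe rows, as did 53.2% of all genes. With the sets removed 0 of 2 passed, against 23.4% of all genes.

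Fermentation genes, which carry pyruvate on to ethanol or acetate, had 3 of 7 above 0 (28.6% of all genes) and 2 below (23.3%), with a median SD of 0.32. Highest in mean and SD (0.39 and 0.53) was pdc201, a pyruvate decarboxylase gene, with averages of -0.025, 1.07 and 0.070 in the 3 sets, an order unlike that of the glycolytic genes. Its paralogue pdc102 had the lowest mean (-0.24, adjusted p = 1.77e-05 in limma), though its variation did not pass between rows. Gluconeogenesis and glycerol genes had 1 of 7 above 0 and 2 below, against the same shares. There gpd1, which encodes glycerol-3-phosphate dehydrogenase and is not a GAPDH gene, had the lowest mean and the highest SD (-0.34 and 0.55), with -0.68, -0.64 and 0.48 in the 3 sets. dak2, which encodes dihydroxyacetone kinase, had the highest mean (0.20) and was above 0 in all 28 arrays.

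Pentose phosphate genes had 1 of 4 above 0 (28.6% of all genes) and 0 below (23.3%). All 4 passed the probe test, as did 53.2% of all genes, and 2 of 4 with the sets removed (23.4%). gnd1, which encodes 6-phosphogluconate dehydrogenase, had the highest mean (0.12), tal1 (transaldolase) the lowest (0.0028), and the transketolase gene tkt1 the highest SD (0.30). The 3 trehalose genes had 0 calls in either direction but a median SD of 0.40. tps1, which encodes trehalose-6-phosphate synthase, had the highest SD of them (0.43) and averaged -0.27, -0.49 and 0.47 in the 3 sets. The trehalase gene ntp1 had the lowest mean (-0.16) and tpp1, which encodes trehalose-6-phosphate phosphatase, the highest (-0.00040). Of 8 hexose transporter genes 0 passed above 0 and 3 below, against the same shares, and ght8 had the highest mean and SD (0.052 and 0.36) and ght3 the lowest mean (-0.14). Of 8 glucose signalling genes 0 passed above 0 (28.6% of all genes) and 5 below (23.3%), and 0 once the sets were a random block. ssp2, which encodes the catalytic subunit of AMP-activated kinase, had the highest mean (-0.023) and the glucose receptor gene git3 the lowest (-0.17). cgs1, which encodes the regulatory subunit of protein kinase A, had the highest SD (0.19).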

How the data were processed

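The authors deposited log2 ratios of the 2 channels for 9858 probe rows on 28 arrays, which the labels call medians. Images came from a GenePix 4000A scanner and were read in GenePix Pro 4.0, per the labels, with background correction and removal of flagged and dim features; the table has 0 missing values. Further normalization, numerator channel and dye orientation are not stated in any source used here, and intensities were not used, so signal over background is unknown.

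Arrays were centred on their medians and the 2 rows of a gene averaged. The platform annotation gave 1 gene for 9632 rows, several for 44 and none for 182; RefSeq gave current names. Means were tested with limma 3.58.1 in R 4.3.3 (lmFit, eBayes with a robust prior), variances with an F test of arrays against array by row, and tdh1 minus gpd3 by flipping signs of arrays (scipy 1.17.1, up to 100000 resamples). P-values are Benjamini-Hochberg values over 4929 genes unless stated. Per the labels cells came from independent cultures, but not which culture went on which array, so p-values measure the spread between arrays.

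The members, lists, array sets and alternatives were chosen with earlier results of these data known. All 10 members are named. In the other lists the genes of highest and lowest mean and of highest SD are named, and like genes are the 5 nearest the pathway average and the 3 nearest tdh1 and gpd3.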

Additional observations from a re-analysis of the deposited data

How the results depend on the processing

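The array sets matter most. The count of members with a mean above 0, 4 in the fit of all arrays, was 0 when the sets were a random block, 7 in arrays 1 to 8, 19 and 20 alone, 0 in arrays 9 to 18 alone and 7 in arrays 21 to 28 alone. The count below 0, otherwise 0, was 1, 4 and 0 in those sets and 1 without arrays 25 to 28 (gpd3, adjusted p = 0.0367 in limma). In arrays 9 to 18 alone the means had the opposite sign for hxk2 (-0.22), tdh1 (-0.24) and eno101 (-0.17), which passed below 0, and for tpi1 (-0.036) and gpm1 (-0.10), which did not, and in arrays 21 to 28 alone for pfk1 (0.27), which passed above 0, and gpd3 (0.25), which did not. The difference tdh1 minus gpd3 was 0.15 with first probes alone (permutation p = 0.05), -0.20 in arrays 9 to 18 and 0.070 in arrays 21 to 28, and the cause was not tested. Without centring tpi1 did not pass (adjusted p = 0.0579 in limma), nor did pgk1 with the second probe alone (0.134). The correlation of tdh1 and gpd3 in arrays 21 to 28 was 0.726 (exact permutation p = 0.182, n = 8) with group means subtracted, also added after seeing the data. Leaving out each array in turn, an alternative added after seeing the data, gave 4 to 5 members above 0 (5 without array 14), 0 below and 9 past the probe test each time, a median SD from 0.218 to 0.257 and tdh1 minus gpd3 from 0.15 to 0.21. tdh1 passed above 0 only without array 14 (mean 0.13, adjusted p = 0.0462 in limma). Shares over all genes are not given for the leave-one-out fits or the fit without arrays 25 to 28. Nor are they given for means above 0 in arrays 9 to 18 alone or below 0 in arrays 21 to 28 alone. Those counts are therefore not set against all genes. The members' median SD stayed above that of all genes without centring, with scaled arrays, with sets removed and without arrays 25 to 28. The same held with single probes and with a median absolute deviation. Past the probe test were 9 members without centring, with scaled arrays and without arrays 25 to 28, and 8 with sets removed. The share of all genes past that test is given only for the main setting and with sets removed. No paired analysis was possible because all arrays belong to 1 group.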
